A study of Mus musculus with 8 samples.

Results

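Acute phase and antimicrobial genes were followed here through 4 sorted subsets of mouse medullary thymic epithelial cells (mTECs). The group holds 8 genes, taken by name from a table of 25466 genes: the serum amyloid A genes Saa1, Saa2 and Saa3, the C-type lectins Reg3g and Reg3b, the lipocalin Lcn2, the polymeric immunoglobulin receptor Pigr and the pentraxin Crp. All 8 genes were in the table and all 8 passed the filter on low counts, which left 17006 genes for testing.

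Acute phase proteins are plasma proteins whose production by the liver rises during inflammation, mainly in response to interleukin-6, interleukin-1 and their downstream factors STAT3, C/EBP and NF-kB. Antimicrobial lectins and lipocalins are made by epithelia of the gut and airway, where interleukin-22 and microbial products induce them. In the thymus, mTECs transcribe many genes that otherwise belong to peripheral tissues, and present their products to developing T cells, so that transcripts of liver and mucosal epithelium are read in these cells as part of tissue-restricted antigen expression.

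The cells came from wild-type BL6N6 mice, which the study's methods place at 4 to 6 weeks of age. CD45neg EpCAMpos CDR1neg mTECs were sorted by surface Tspan8, itself a tissue-restricted antigen, and by MHCII, which rises as mTECs mature. Per the study, MHCII falls again in late mTECs, so that MHCIIlo does not stand for immature cells alone. The study describes Tspan8negMHCIIlo as a mixture that includes immature mTECs, and places Tspan8posMHCIIlo last in a putative developmental sequence. Each of the 4 subsets (Tspan8negMHCIIlo, Tspan8negMHCIIhi, Tspan8posMHCIIhi and Tspan8posMHCIIlo, where lo and hi stand for the labels' MHCIIlow and MHCIIhigh) has 2 libraries labelled as biological replicates, and all groups were untreated. The labels do not say how many mice stand behind a library, so that p-values measure the spread between these libraries only.

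The libraries held between 1941518 and 7783841 estimated counts, and the shallowest was Tspan8posMHCIIlo replicate 1. Levels are given as CPM, which are counts scaled to one common library total, after TMM normalisation. The transcript of the sorted antigen Tspan8 stood at 347 to 404 CPM in the 4 Tspan8pos libraries and at 3.65 to 14.6 CPM in the 4 Tspan8neg libraries. The MHCII transcript H2-Ab1 ran from 1700 to 2074 CPM in Tspan8negMHCIIlo, from 4988 to 5098 in Tspan8negMHCIIhi, from 2431 to 2619 in Tspan8posMHCIIhi and from 489 to 518 in Tspan8posMHCIIlo. Each MHCIIhi subset was thus above its MHCIIlo partner, whereas the levels behind one MHCII name differed between the Tspan8 gates.

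The 8 genes lie on 4 chromosomes of the GRCm38 assembly. Saa3 (chr7:46711998-46715700), Saa1 (chr7:46740497-46742980) and Saa2 (chr7:46751790-46754313) sit within a cluster of 42.3 kb, with Saa1 and Saa3 on the minus strand and Saa2 on the plus strand. Reg3b (chr6:78370657-78373466, plus strand) and Reg3g (chr6:78466269-78468872, minus strand) belong to a Reg gene cluster of 98.2 kb. Lcn2 (chr2:32384633-32388252, minus strand), Pigr (chr1:130826684-130852249, plus strand) and Crp (chr1:172698055-172833031, plus strand) stand apart from the clusters. The long Crp interval spans a short coding transcript at its start and a noncoding transcript with a distant exon, and the deposited count sums both.

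The sequences before 4 start sites are shown, chosen with levels and matches known. Saa1 and Saa2 are near copies that differed in their pattern over the subsets. Saa3 and Reg3g had the highest levels per length and were the 2 members with an NF-kB match. Whether any match bears on the level or pattern of a gene was not tested. The sequences are RefSeq promoter windows on GRCm38, 5′ to 3′ on the gene's strand, without annotated exon bases. They cover chr7:46742981-46743180 (minus strand) for Saa1, chr7:46751633-46751789 (plus strand) for Saa2, chr7:46715701-46715876 (minus strand) for Saa3 and chr6:78468875-78469074 (minus strand) for Reg3g. Capitals mark matches to a C/EBP pattern (TTNNGNAA) or an NF-kB pattern (GGNNTTTCC) on either strand.
Saa1: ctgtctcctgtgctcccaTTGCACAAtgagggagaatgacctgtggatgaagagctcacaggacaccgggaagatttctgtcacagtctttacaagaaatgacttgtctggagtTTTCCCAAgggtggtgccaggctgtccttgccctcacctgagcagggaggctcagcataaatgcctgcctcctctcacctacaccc
Saa2: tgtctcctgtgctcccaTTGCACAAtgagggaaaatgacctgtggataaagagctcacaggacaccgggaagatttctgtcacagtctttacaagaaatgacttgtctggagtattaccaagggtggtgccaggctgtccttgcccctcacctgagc
Saa3: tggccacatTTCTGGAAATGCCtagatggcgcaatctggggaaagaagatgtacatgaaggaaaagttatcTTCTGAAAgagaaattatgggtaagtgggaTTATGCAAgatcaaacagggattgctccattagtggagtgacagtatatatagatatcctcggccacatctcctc
Reg3g: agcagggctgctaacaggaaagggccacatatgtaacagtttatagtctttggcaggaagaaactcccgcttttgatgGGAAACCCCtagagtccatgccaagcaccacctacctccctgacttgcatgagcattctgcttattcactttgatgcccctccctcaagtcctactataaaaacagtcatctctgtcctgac
The 250 bases before the Saa1 and Saa2 start sites were identical at 238 positions (95.2%), and those of Reg3g and Reg3b at 173 positions (69.2%). All other pairs of members matched at between 47.2% and 58% of these positions. In the full windows of 250 bases before to 50 after the start site, the C/EBP pattern was found in 5 members (Saa1, Saa2, Saa3, Lcn2 and Crp) and in 40.7% of all 32544 promoter windows. The NF-kB pattern was found in Saa3 and Reg3g and in 5.83% of all windows, and one NF-kB match in Saa3 overlaps a C/EBP match. A STAT pattern (TTCNNNGAA) was found in Reg3b and Pigr and in 8.33% of windows. The short Klf pattern CACCC was present in 4 members and in 57.7% of windows, and the Ets core GGAA, present in all 8 members, occurred in 96.0% of windows.

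Reg3g, a secreted lectin that binds the peptidoglycan of Gram-positive bacteria, had the highest level of the 8 genes in every subset. It was read at 101 and 188 CPM in Tspan8negMHCIIlo, at 242 and 358 in Tspan8negMHCIIhi, at 4848 and 5726 in Tspan8posMHCIIhi and at 2018 and 2279 in Tspan8posMHCIIlo. The Tspan8pos libraries were all above the Tspan8neg libraries, with no overlap between any 2 subsets. Per kilobase of its transcript (RPKM), Reg3g reached 6857 ± 805 (SD, n = 2) in Tspan8posMHCIIhi, which placed it first of 25336 genes with a known length, and 2787 ± 239 in Tspan8posMHCIIlo, where it was sixth. In Tspan8negMHCIIlo it stood at place 269.

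Reg3b, the neighbouring lectin of the same family, was less abundant, and its high level was found in a single subset. Its levels were 8.15 and 5.89 CPM in Tspan8negMHCIIlo, 13.3 and 25.5 in Tspan8negMHCIIhi, 267 and 298 in Tspan8posMHCIIhi and 25.8 and 17.5 in Tspan8posMHCIIlo. Both Tspan8posMHCIIhi libraries lay above all the others, and the Tspan8posMHCIIlo libraries overlapped those of Tspan8negMHCIIhi. Relative to Reg3g, Reg3b took 5.22% and 4.94% of their summed counts in Tspan8posMHCIIhi but 1.26% (95% exact binomial interval 0.93% to 1.68%) and 0.761% (0.635% to 0.904%) in Tspan8posMHCIIlo. In the Tspan8neg libraries its share was between 3.04% and 7.47%. Intervals of shares cover counting error only, since amplified reads are not independent molecules.

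Saa3, the serum amyloid A made mainly outside the liver, followed the same order as Reg3b. It was read at 19.1 and 28.5 CPM in Tspan8negMHCIIlo, at 122 and 171 in Tspan8negMHCIIhi, at 1319 and 1665 in Tspan8posMHCIIhi and at 139 and 158 in Tspan8posMHCIIlo. The Tspan8posMHCIIlo and Tspan8negMHCIIhi libraries overlapped, and Tspan8posMHCIIhi lay above both. Its RPKM of 2688 ± 441 (SD, n = 2) in Tspan8posMHCIIhi was the eighth highest of all genes with a known length.

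Saa1, an apolipoprotein of high density lipoprotein that the liver releases in large amounts during the acute phase, differed between all 4 subsets. Its levels were 5.34 and 14.1 CPM in Tspan8negMHCIIlo, 54.5 and 62.8 in Tspan8negMHCIIhi, 665 and 787 in Tspan8posMHCIIhi and 159 and 156 in Tspan8posMHCIIlo. No 2 subsets overlapped. As a ratio, the 2 Tspan8negMHCIIlo libraries differed from each other more than any other replicate pair of Saa1. In CPM the Tspan8posMHCIIhi pair differed the most.

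Saa2, the second liver-type serum amyloid A, was detected mainly in the MHCIIhi cells of both Tspan8 gates. It had 1 count in each Tspan8negMHCIIlo library, 65 and 126 counts in Tspan8negMHCIIhi, 123 and 148 in Tspan8posMHCIIhi and 3 and 1 in Tspan8posMHCIIlo. In normalised terms the MHCIIhi libraries lay at 13.5 and 16.2 CPM (Tspan8neg) and at 24.5 and 30.1 CPM (Tspan8pos). Its share of the summed Saa1 and Saa2 counts was 19.9% (95% exact binomial interval 15.7% to 24.6%) and 20.5% (17.3% to 23.9%) in Tspan8negMHCIIhi, against 3.55% (2.96% to 4.22%) and 3.68% (3.12% to 4.31%) in Tspan8posMHCIIhi. In Tspan8posMHCIIlo it was 1.02% (0.212% to 2.96%) and 0.0876% (0.00222% to 0.487%). Of all 54-base stretches of the annotated transcripts, 27.9% of those of Saa2 also occur in Saa1, and the counting had to divide such reads, so that the share depends on how they were assigned.

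**Figure D1:**
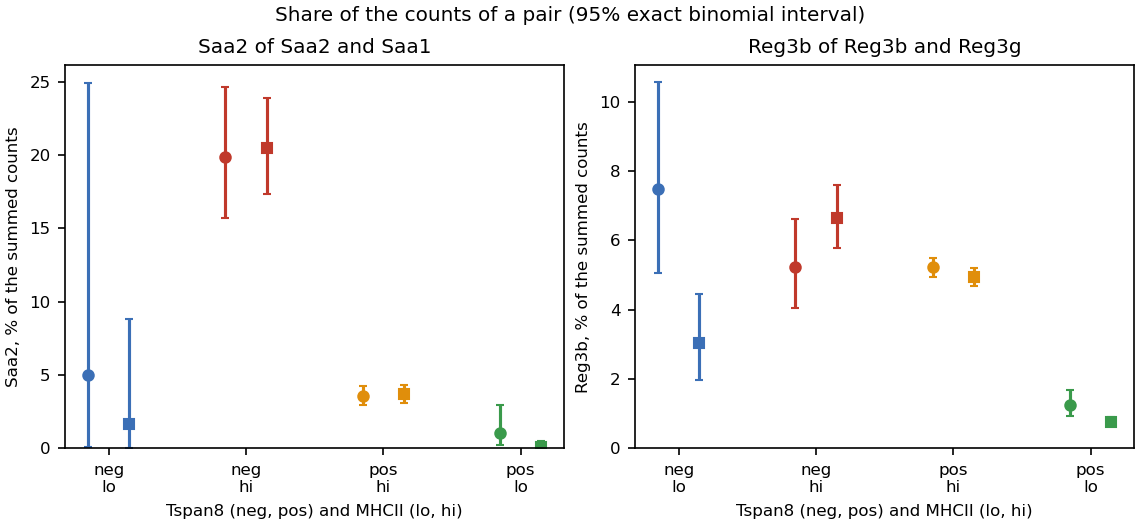
Share of Saa2 in the summed counts of Saa2 and Saa1 (left) and of Reg3b in those of Reg3b and Reg3g (right), in percent, for each library (circle replicate 1, square replicate 2) with 95% exact binomial intervals. The Saa2 share is 19.9% and 20.5% in Tspan8negMHCIIhi and 3.55% and 3.68% in Tspan8posMHCIIhi, and the Reg3b share is lowest in the 2 Tspan8posMHCIIlo libraries.

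Lcn2, which withholds iron from bacteria by binding their siderophores, differed more by Tspan8 than by MHCII. It was read at 15.2 and 22.4 CPM in Tspan8negMHCIIlo, at 20.4 and 27.4 in Tspan8negMHCIIhi, at 179 and 163 in Tspan8posMHCIIhi and at 98.4 and 91.3 in Tspan8posMHCIIlo. The Tspan8neg subsets overlapped, and all 4 Tspan8pos libraries lay above them. Within the Tspan8pos gate the MHCIIhi libraries lay above the MHCIIlo libraries without overlap.

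Pigr, the receptor that carries polymeric IgA and IgM across epithelium, had the same order. Its levels were 55.9 and 76.9 CPM in Tspan8negMHCIIlo, 92.8 and 133 in Tspan8negMHCIIhi, 994 and 1032 in Tspan8posMHCIIhi and 387 and 412 in Tspan8posMHCIIlo. Per kilobase of its long transcript this came to 263 ± 7.13 RPKM (SD, n = 2) in Tspan8posMHCIIhi, well under Reg3g, Saa3 and Saa1 (1192 ± 142 RPKM) in the same subset.

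Crp, a pentraxin that binds phosphocholine on microbes and damaged cells, was the exception. It was highest in Tspan8negMHCIIlo with 67 and 49 counts (18.8 and 11.6 CPM), followed by 7.49 and 8.84 CPM in Tspan8negMHCIIhi, 4.58 and 5.69 in Tspan8posMHCIIhi and 1.10 and 1.91 in Tspan8posMHCIIlo, where it had only 2 and 14 counts. It was the only member with its highest mean in Tspan8negMHCIIlo and its lowest in Tspan8posMHCIIlo, and no 2 neighbouring subsets in its order differed at the threshold used below.

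**Figure D2:**
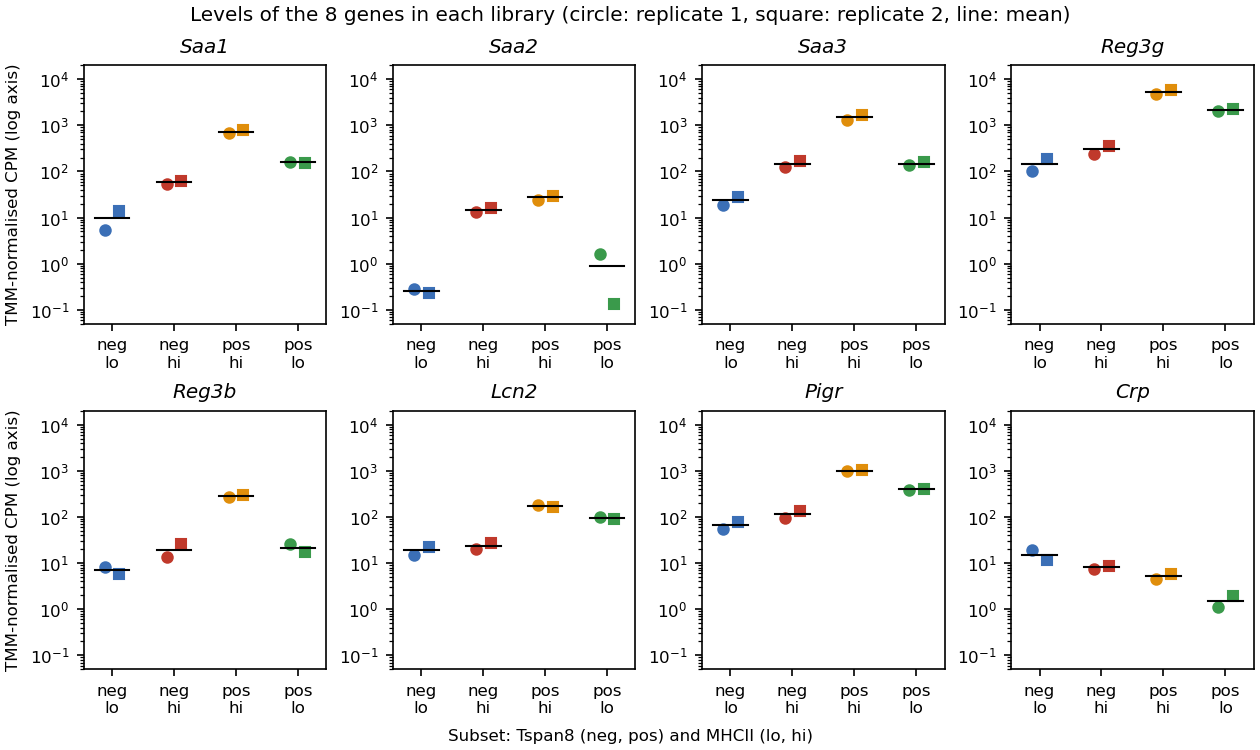
TMM-normalised CPM (log axis) of each of the 8 genes in the 8 libraries, ordered by subset, with circles for replicate 1, squares for replicate 2 and a line at the mean. Saa1, Saa2, Saa3, Reg3g, Reg3b, Lcn2 and Pigr have their highest mean in Tspan8posMHCIIhi, whereas Crp is highest in Tspan8negMHCIIlo.

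The comparisons below used edgeR's quasi-likelihood test over all 17006 genes, with p-values adjusted by the Benjamini-Hochberg method. A gene is called higher or lower at an adjusted p under 0.01 together with a change of at least 2-fold. With 2 libraries in a group no exact permutation test of a single gene can reach 0.05.

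The first question was how the Tspan8pos subsets differed from their Tspan8neg counterparts. Among MHCIIlo cells 6 of the 8 genes were higher in Tspan8pos cells, where 12.1% of all genes tested were called higher, and Crp alone was lower, where 9.34% were called lower. The rise was 15.7-fold for Saa1 (log2 fold change 3.98 ± 0.29 SE, adjusted p = 1.94e-06), 14.8-fold for Reg3g, 6.22-fold for Saa3, 6.01-fold for Pigr, 4.98-fold for Lcn2 and 2.92-fold for Reg3b (1.55 ± 0.35, adjusted p = 0.00488). Crp fell by 3.14 ± 0.44 on the log2 scale (adjusted p = 0.000202), and its summed counts gave a ratio of 8.50 with a counting interval of 5.02 to 15.4. Saa2 rested on 4 against 2 counts (ratio 1.71, counting interval 0.245 to 18.9, adjusted p = 0.635), so that a difference was not detectable at this depth. The call for Reg3b was lost on leaving out Tspan8negMHCIIlo replicate 2 (adjusted p = 0.0252) or either Tspan8posMHCIIlo library (0.0276 without replicate 1 and 0.0129 without replicate 2), and in a fit of the 4 libraries compared (0.0114). These are bulk libraries, in which fewer cells of a type and less RNA per cell cannot be told apart.

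Among MHCIIhi cells the same 6 genes were called higher in Tspan8pos cells, against 11.0% of all genes called higher and 7.45% called lower. Reg3g was 17.6-fold higher (4.14 ± 0.28, adjusted p = 1.29e-06), Reg3b 14.2-fold, Saa1 12.3-fold, Saa3 10.2-fold, Pigr 8.92-fold and Lcn2 7.08-fold (2.82 ± 0.19, adjusted p = 1.33e-06). Saa2 had a log2 fold change of 0.87 ± 0.34 (adjusted p = 0.0627) and Crp one of -0.67 ± 0.37 (adjusted p = 0.172), and neither was called. The median log2 fold change of the 8 genes was 2.45 in MHCIIlo and 3.25 in MHCIIhi cells, beside -0.03 over all genes tested in each case. Leaving out any one library kept all 6 calls in MHCIIhi cells.

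The next question was how MHCIIhi cells differed from MHCIIlo cells within each Tspan8 gate. Among Tspan8neg cells 5 genes were called higher in MHCIIhi, beside 13.1% of all genes called higher and 9.67% called lower, and none of the 8 was called lower. Saa2 was the most changed (log2 fold change 5.73 ± 0.65, adjusted p = 5.33e-05). It had 191 against 2 summed counts and a ratio of 59.1 (counting interval 16.1 to 491). Saa3 rose 6.11-fold (2.61 ± 0.23, adjusted p = 1.04e-05), Saa1 5.88-fold, Reg3b 2.86-fold and Reg3g 2.07-fold (1.05 ± 0.26, adjusted p = 0.00701). Pigr passed the adjusted p but changed by less than 2-fold (0.77 ± 0.19, adjusted p = 0.00812), and Lcn2 had a log2 fold change of 0.35 ± 0.22. Only 3 genes, all of them serum amyloid A genes, were called without Tspan8negMHCIIhi replicate 2, and the same 3 in a fit of the 4 libraries of this comparison alone, both of which lost Reg3g and Reg3b. The call for Reg3g was lost on leaving out any one of 6 of the 8 libraries, with adjusted p between 0.0134 and 0.0555, and that for Reg3b also without Tspan8negMHCIIlo replicate 2 (adjusted p = 0.0211).

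Among Tspan8pos cells 6 genes were called higher in MHCIIhi, beside 4.59% of all genes called higher and 2.62% called lower. Saa2 again had the largest ratio, 62.3 from 271 against 4 summed counts (counting interval 24.1 to 230.3). Its log2 fold change was 5.80 ± 0.58 (adjusted p = 6.66e-05). Reg3b was 13.9-fold higher (3.79 ± 0.28, adjusted p = 1.2e-05), Saa3 rose by 3.32 ± 0.22 on the log2 scale, and Saa1 was 4.61-fold, Pigr 2.53-fold and Reg3g 2.46-fold higher (1.30 ± 0.25, adjusted p = 0.00496). Lcn2 passed the adjusted p at less than 2-fold (0.86 ± 0.18, adjusted p = 0.00781), and Crp, at 1.58 ± 0.46, did not pass (adjusted p = 0.0391). The call for Reg3g was lost on leaving out any of the 4 libraries compared, with adjusted p between 0.0197 and 0.0515, and the call for Pigr on leaving out either Tspan8posMHCIIlo library.

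**Figure D3:**
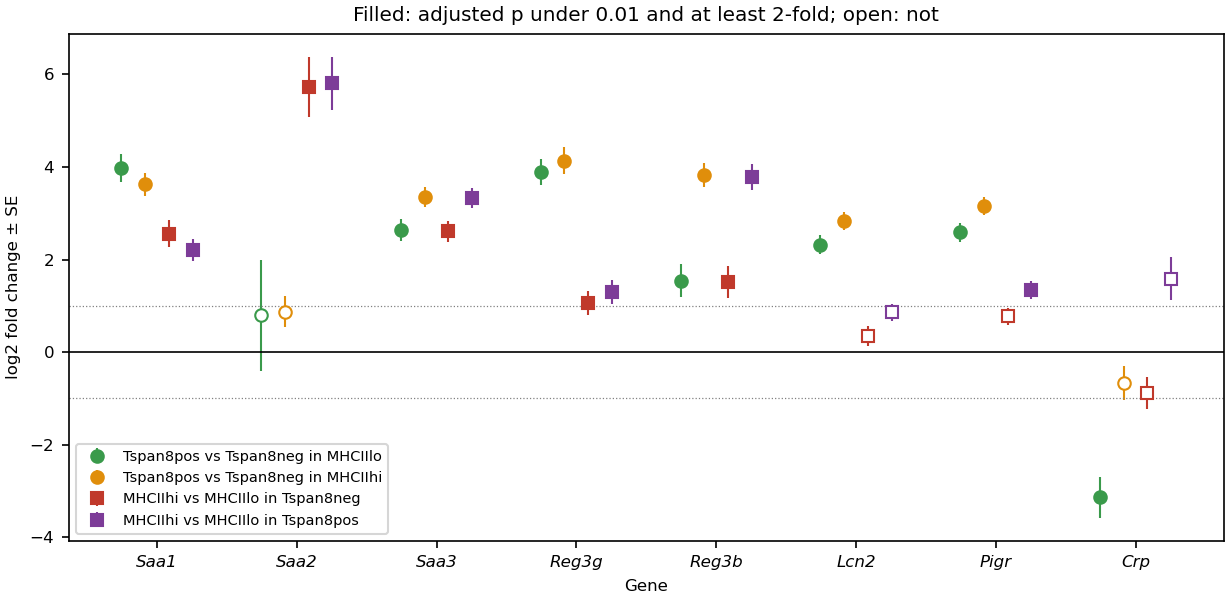
Log2 fold change with its SE for each gene in the Tspan8 comparisons (circles) and the MHCII comparisons (squares), with filled symbols for genes called at an adjusted p under 0.01 and at least 2-fold. Reg3g, Lcn2 and Pigr lie higher in the Tspan8 than in the MHCII comparisons, Saa2 shows the reverse, and the Crp change in MHCIIlo cells is the single filled symbol below 0.

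Whether the Tspan8 difference itself depended on MHCII was tested with an interaction term. Reg3b alone was called among the 8 genes, with a Tspan8 difference that was smaller in MHCIIlo than in MHCIIhi cells by 2.28 ± 0.46 on the log2 scale (adjusted p = 0.00924), beside 2.36% of all genes called higher and 2.24% called lower for this term. The call did not survive leaving out any one of 6 of the 8 libraries, either replicate of both Tspan8pos subsets among them, nor scaling by DESeq2 size factors (adjusted p = 0.0113), nor thinning all libraries to the smallest total (adjusted p = 0.0219). Without one of these 6 libraries the adjusted p was between 0.0168 and 0.0656. The corresponding value for Crp was -2.46 ± 0.58 (adjusted p = 0.0192).

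Across the gates, Tspan8posMHCIIlo cells were set against Tspan8negMHCIIhi cells. Reg3g was 7.16-fold higher in Tspan8posMHCIIlo (2.84 ± 0.27, adjusted p = 7.14e-06), Lcn2 3.91-fold, Pigr 3.52-fold and Saa1 2.68-fold, which made 4 genes higher beside 14.7% of all genes. Saa2 was lower, with a log2 fold change of -4.93 ± 0.60 (adjusted p = 4.54e-05). Its summed counts gave a ratio of 34.6 in favour of Tspan8negMHCIIhi (counting interval 13.3 to 128.4). Crp fell by 2.26 ± 0.44 on the log2 scale (adjusted p = 0.00144), which made 2 lower beside 14.6%. Saa3 and Reg3b had log2 fold changes of 0.02 ± 0.21 (adjusted p = 0.934) and 0.03 ± 0.29 (adjusted p = 0.943), and the sign of both turned under other scalings, filters and choices of libraries. Without Tspan8negMHCIIhi replicate 1 the call for Saa1 was lost (adjusted p = 0.0136), and without Tspan8posMHCIIlo replicate 2 that for Crp (adjusted p = 0.0173), which was also lost after thinning (adjusted p = 0.0129).

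Between the subsets at either end, all 8 genes were called in Tspan8posMHCIIhi against Tspan8negMHCIIlo, 7 of them higher beside 14.4% of all genes and Crp lower beside 10.3%. Saa1 differed 72.6-fold, Saa3 62.2-fold, Reg3b 40.5-fold, Reg3g 36.5-fold, Pigr 15.2-fold and Lcn2 9.03-fold. For Saa2 the log2 fold change was 6.60 ± 0.62 (adjusted p = 9.87e-06), and the ratio from 271 against 2 summed counts was 106.3 (counting interval 29.1 to 882.4). Crp was lower by a log2 fold change of -1.55 ± 0.37 (adjusted p = 0.00501), a call that was lost without Tspan8negMHCIIlo replicate 1 (adjusted p = 0.0358), without either Tspan8negMHCIIhi library (0.0110 and 0.0111), without either Tspan8posMHCIIhi library (0.0468 and 0.0221), with DESeq2 (0.0183), in a fit of the 4 libraries compared (0.0145) and after thinning (0.0196). These comparisons share libraries with the ones above and are not independent of them.

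The members fell into more than one pattern over the 8 libraries. Reg3g, Lcn2 and Pigr were the most alike, with Pearson r between 0.991 and 0.995 of log2 CPM for the 3 pairs, and Reg3g was the gene most like Pigr of all genes compared. Saa3 and Reg3b reached 0.962 with each other, and Saa1 reached 0.964 with Saa3 and 0.958 with Reg3g. Saa2 stood apart from Reg3g (0.42), Lcn2 (0.375) and Pigr (0.476), and Crp had a negative r with all other members except Saa2 (0.0151). These values describe 8 libraries in 4 groups and carry no test.

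Genes outside the group that were most like a member included secreted proteins of other tissues. Those nearest to Reg3g were Depp1 (r = 0.999), the matrix metalloproteinase Mmp7 (0.998) and the vitamin D binding protein Gc (0.997). Those nearest to Saa1 were Arhgef10l (0.996), BC031181 (0.995) and the mucosal scavenger receptor protein Dmbt1 (0.993), and those nearest to Saa3 were B3gnt3 (0.995), the kallikrein Klk1b16 (0.995) and the peroxidase Gpx1 (0.994). Lcn2 was most like Ugt2b34, the islet peptide Iapp and Ear1 (0.994 to 0.995), and Pigr, after Reg3g, was most like Cyp2a5 and Gc (0.994 each). Saa2 was most like the calcium binding protein S100g (0.991), Gstt1 (0.987) and Klk1b11 (0.983), and Reg3b like Zmat5, Commd8 and St3gal6 (0.986 to 0.987). The genes nearest to Crp were Rsl24d1, adrenomedullin (Adm) and the cartilage protein Matn1 (0.980 to 0.981).

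The neighbours in the 2 gene clusters did not all share the level of the members. Saa4, the constitutive serum amyloid A between Saa3 and Saa1, had mean levels of 0.421 CPM in Tspan8negMHCIIlo, 4.83 in Tspan8negMHCIIhi, 12.4 in Tspan8posMHCIIhi and 3.43 in Tspan8posMHCIIlo. It was called only in Tspan8neg cells, higher in MHCIIhi, of the Tspan8 and MHCII comparisons. Reg1, another secreted lectin of the Reg cluster, reached 32.6 CPM in Tspan8posMHCIIhi and 13.6 in Tspan8negMHCIIhi, against 1.79 and 1.37 CPM in Tspan8negMHCIIlo and Tspan8posMHCIIlo. Reg2 stayed between 5.28 and 11.6 CPM, Reg3a did not exceed 4.23 CPM, and Reg3d was too low to be tested.

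Other acute phase proteins, a list of 18 genes of which 17 were tested, split between the Tspan8 gates. In MHCIIhi cells 6 were higher and 4 lower in Tspan8pos cells, with a median log2 fold change of 0.52, beside 11.0% of all genes called higher and 7.45% called lower. In MHCIIlo cells 3 were higher and 2 lower (median 0.59), beside 12.1% and 9.34% of all genes. The carrier proteins Orm1 and Hp moved like the members, with log2 fold changes of 3.39 ± 0.17 and 3.01 ± 0.24 in MHCIIhi cells. The fibrinogen chain Fgg (-2.71 ± 0.36) and the inter-alpha-trypsin inhibitor heavy chain Itih3 (-2.96 ± 0.45) were lower in the Tspan8pos cells. Complement C3, the most abundant of the list at a mean of 995.2 CPM, was higher in Tspan8posMHCIIhi than in both of its neighbours by 1.24 ± 0.18 and 1.42 ± 0.18. Between MHCIIhi and MHCIIlo cells, 10 genes were higher and 2 lower in the Tspan8neg gate (median 1.82, all genes 13.1% and 9.67%), and 5 were higher and none lower in the Tspan8pos gate (median 2.00, all genes 4.59% and 2.62%).

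Of 28 other antimicrobial proteins 24 were tested. In the Tspan8pos cells 12 were higher and none lower among MHCIIlo cells (median 1.57), beside 12.1% and 9.34% of all genes, and 12 were higher and 1 lower among MHCIIhi cells (median 0.87), beside 11.0% and 7.45%. The peptidoglycan recognition proteins Pglyrp4 and Pglyrp3 changed by 5.36 ± 0.26 and 5.26 ± 0.39 in MHCIIlo cells, and the iron binding protein Ltf by 4.75 ± 0.53. The airway proteins Bpifa1 and Wfdc2 were the most abundant, with means over all libraries of 581 and 375.5 CPM. Their log2 fold changes in MHCIIhi cells were 4.08 ± 0.34 and 3.72 ± 0.22. Nos2, the inducible nitric oxide synthase, rose with MHCII, by 3.94 ± 0.20 in Tspan8neg and 2.56 ± 0.19 in Tspan8pos cells, and with Tspan8 by 1.39 ± 0.20 in MHCIIlo but 0.01 ± 0.17 in MHCIIhi cells. By MHCII, 16 genes of the list were higher in Tspan8neg cells (13.1% of all genes) and 8 in Tspan8pos cells (4.59% of all genes), with none lower in either.

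**Figure D4:**
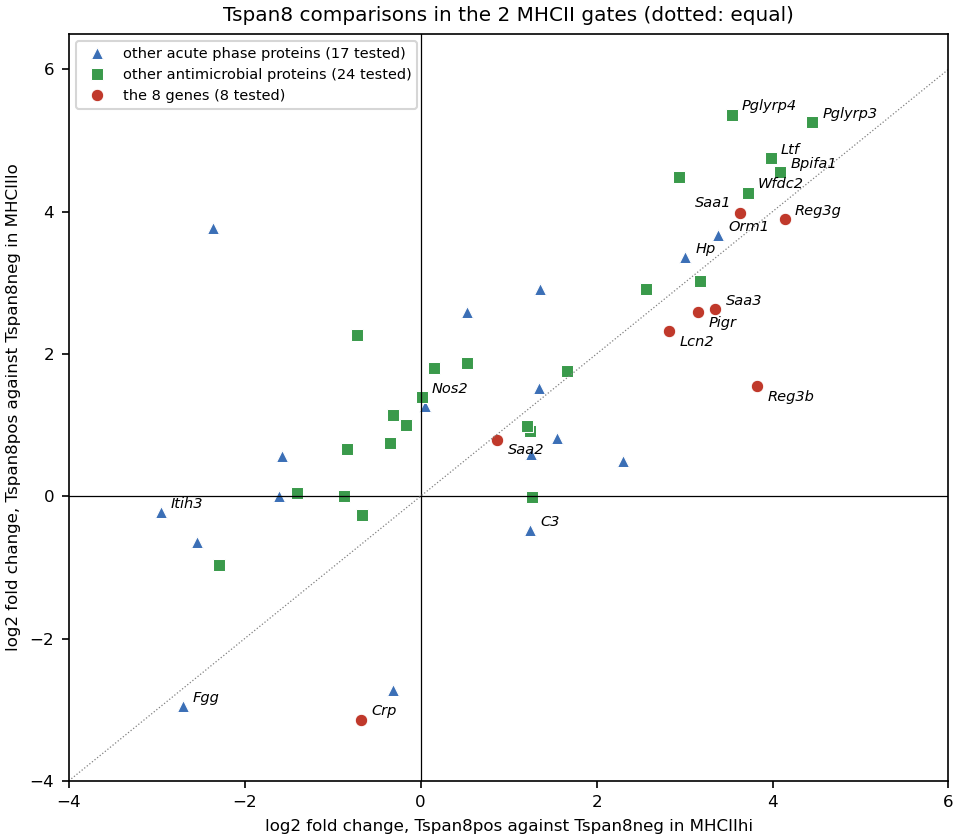
Log2 fold change of Tspan8pos against Tspan8neg cells in MHCIIhi (horizontal axis) and MHCIIlo (vertical axis) for the 8 genes, 17 other acute phase genes and 24 other antimicrobial genes, with a dotted line of equal change. Reg3b lies farthest below the line among the labelled genes with positive changes on both axes, and Crp, Fgg and Itih3 lie on the negative side of both axes.

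The signals known to induce these genes were examined as lists of 20 cytokine and receptor genes (18 tested) and 14 transcription factor and feedback genes (all tested). In the Tspan8pos cells 4 of the cytokine and receptor genes were higher and 1 lower in MHCIIlo, beside 12.1% and 9.34% of all genes, and 7 higher and none lower in MHCIIhi, beside 11.0% and 7.45%. Il22ra1, the chain of the interleukin-22 receptor found on epithelium, was the most changed, at means of 0.635 CPM in Tspan8negMHCIIlo and 0.800 CPM in Tspan8negMHCIIhi and 12.5 and 10.9 CPM in Tspan8posMHCIIhi and Tspan8posMHCIIlo. Its log2 fold changes were 4.10 ± 0.51 in MHCIIlo and 3.93 ± 0.45 in MHCIIhi cells. The Tspan8neg libraries read 0.562 to 0.832 CPM for it, where 3 counts stand at 0.411 to 0.868 CPM. Few counts therefore carry the lower side of these changes. The interleukin-1 antagonist Il1rn, the most abundant of the list, changed by 2.91 ± 0.21 and 1.35 ± 0.19. Transcripts of the ligands Il22 and Il6 were scarce, at means between 0.275 and 8.92 CPM and between 1.11 and 12.1 CPM. Il22 was highest in Tspan8negMHCIIhi and lowest in Tspan8posMHCIIlo. Il6 was highest in Tspan8negMHCIIlo and lowest in Tspan8posMHCIIhi, and stood at 8.91 CPM in Tspan8posMHCIIlo. The ligand Tnf reached a mean of 89.2 CPM in Tspan8negMHCIIhi, beside 48.3 in Tspan8posMHCIIhi, 25.7 in Tspan8posMHCIIlo and 6.77 in Tspan8negMHCIIlo. Il6st and Lifr, chains of the receptors of the interleukin-6 family, were lower in MHCIIhi than in MHCIIlo cells of the Tspan8neg gate, by log2 fold changes of -2.28 ± 0.22 and -3.37 ± 0.29.

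Of the transcription factors, Cebpb and Cebpa were higher in the Tspan8pos cells of both MHCII gates. Cebpb changed by 1.73 ± 0.22 in MHCIIlo and 2.43 ± 0.22 in MHCIIhi, and Cebpa by 1.57 ± 0.17 and 2.12 ± 0.17. In all, 2 of the 14 were higher and 1 lower in MHCIIlo, beside 12.1% and 9.34% of all genes, and 4 were higher and 1 lower in MHCIIhi, beside 11.0% and 7.45%. The lower gene in MHCIIlo cells was the cytokine feedback gene Socs3 (-1.46 ± 0.16). Stat3 was read at means between 596 and 801 CPM, and none of the Tspan8 and MHCII comparisons called it. Between MHCIIhi and MHCIIlo cells of the Tspan8neg gate, 4 of the 14 were called higher and 3 lower, beside 13.1% and 9.67% of all genes. Socs3 had the largest change there (-2.40 ± 0.17). Nfkbia and Nfkb2, both targets of NF-kB signalling, were higher in the MHCIIhi cells of that gate (1.32 ± 0.13 and 1.16 ± 0.14).

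Partners and receptors of the products made up 10 genes, of which 9 were tested. None was higher and 3 were lower in the Tspan8pos cells of the MHCIIlo gate, beside 12.1% and 9.34% of all genes, and only the lipopolysaccharide receptor Tlr4 was higher in the MHCIIhi gate (2.17 ± 0.35), beside 11.0% of all genes. Igha and Jchain, which make up the polymeric IgA that Pigr carries, were highest in Tspan8negMHCIIlo at means of 240.2 and 78.7 CPM, and stood at 1.32 and 0.906 CPM in Tspan8posMHCIIhi. Extl3, reported as a receptor for Reg3 lectins, and the Lcn2 receptor Slc22a17 were also highest in Tspan8negMHCIIlo, at 51.4 and 64.4 CPM.

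The 6 mTEC and epithelial markers, all above 0 in every subset, summed to between 4609 and 9597 CPM over the libraries. Markers of other cells that a sort could hold were read beside these results. The 6 thymocyte markers summed to between 336.2 and 933 CPM in Tspan8negMHCIIlo, the highest in replicate 2, and to between 62.8 and 196 CPM in the other subsets. The 6 B and plasma cell markers summed to 542 to 931 CPM in Tspan8negMHCIIlo and 26.4 to 129 CPM elsewhere. Both were thus highest where 7 of the members were lowest, and where Crp was highest. Of 7 neutrophil markers 6 were analysed. They summed to 160 to 194 CPM in Tspan8negMHCIIhi, 123 to 137 in Tspan8posMHCIIhi and 12.6 to 68.4 in the MHCIIlo subsets. In Tspan8negMHCIIhi, S100a9 had a mean of 57.9 CPM, Mpo 57.7, S100a8 35.2, Ly6g 23.1, Csf3r 2.11 and Retnlg 1.11 CPM. In the same order the means in Tspan8posMHCIIhi were 83.6, 12.4, 19.8, 11.2, 2.82 and 0.102 CPM. S100a8 and S100a9 also belong to the list of other antimicrobial proteins. The 6 macrophage and dendritic cell markers had their highest sum in Tspan8posMHCIIhi, at 220 to 252 CPM against 31.7 to 70.3 CPM in Tspan8negMHCIIlo. Of this sum in Tspan8posMHCIIhi, Itgam made up a mean of 154 CPM, Cd68 44.7, Csf1r 30.4, Adgre1 3.23, Itgax 2.02 and Cx3cr1 1.22 CPM. Against Tspan8negMHCIIlo, Itgam (4.48 ± 0.29) and Cd68 (1.83 ± 0.21) were called higher there, whereas Itgax was called lower (-3.11 ± 0.64). The 4 markers of cortical thymic epithelium (240 to 1055 CPM) and the 3 of endothelium (13.0 to 106 CPM) were highest in Tspan8negMHCIIlo. The 5 of fibroblasts (41.7 to 169 CPM) were highest in Tspan8negMHCIIlo replicate 2. Replicate 1 of that subset stood at 97.7 CPM, below the 124 and 134 CPM of the Tspan8negMHCIIhi libraries. Markers of microfold-like mTECs were highest in Tspan8posMHCIIlo (2807 to 3095 CPM) and next in Tspan8posMHCIIhi (1857 to 2026), and those of enterohepatic-like mTECs were highest in the MHCIIhi subsets (272 to 343 CPM in all 4 libraries). The part of any of these cells in the members' levels was not tested.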

How the data were processed

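Total RNA of sorted wild-type mTECs was sequenced as 54-base single-end reads in 8 libraries, 2 for each of 4 subsets. The authors deposited estimated counts per gene and library, made per the labels and the study's methods with FastQC and Salmon 1.8.0 on the Gencode vM10 transcriptome (GRCm38), as whole numbers without normalisation. Every gene in the table was above 0 in at least 2 libraries. Whether the counting used strand is not settled, since the kit named in the labels and the protocol in the methods differ. Totals ranged from 1941518 to 7783841 (median 4857083.5), which sets a level of 3 counts at 0.385 to 1.55 CPM. Gene symbols were found for 25336 of the 25466 identifiers (99.5%) in a later GENCODE release (M21) on the same assembly, and lengths for RPKM are those of the principal transcript there.

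Libraries were scaled by TMM (factors 0.927 to 1.08), filtered with filterByExpr at default settings and fitted in one edgeR 4.0.16 quasi-likelihood model with a mean per subset. Standard errors were derived from the F statistic. Deviations between replicates exceeded counting noise in every subset, from 3.47 chi-square per gene in Tspan8negMHCIIhi to 10.6 in Tspan8negMHCIIlo. No libraries were therefore merged in the fits, which share information on the spread over all subsets. The Saa2 and Crp ratios with a counting interval rest on counts summed over the 2 libraries of a subset. Those intervals leave out the spread between replicates. Log2 CPM for likeness used a prior count of 2 and was limited to genes whose mean reached 5 CPM. Alternatives were DESeq2 1.42.0, its size factors in edgeR, other filters and thresholds, a fit of the compared libraries alone, thinning to the smallest total, a replicate block and leaving out each library. The test was tried on simulated data first. Counting intervals are 95% exact binomial intervals computed with scipy 1.17.1. Promoter windows are RefSeq sequences on GRCm38.

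All 8 members are named. Of each gene list, up to 3 called genes with the largest change per comparison and the 3 of highest mean CPM were eligible to be named, and for each member the 3 most alike genes; the neighbours in the Saa and Reg clusters, Saa4, Reg2 and Reg3d among them, and single markers were named after their values were seen. The values of 1 listed gene are not reported here. The members and lists were chosen with earlier results of these data known.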

Additional observations from a re-analysis of the deposited data

Results flagged for a closer look

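Reg3b was singled out because its Tspan8 difference varied between the MHCII gates by the interaction test. The log2 fold change of Tspan8pos against Tspan8neg cells was 1.55 ± 0.35 in MHCIIlo and 3.82 ± 0.27 in MHCIIhi cells, a difference of -2.28 ± 0.46 (edgeR quasi-likelihood, adjusted p = 0.00924). In MHCIIlo the Tspan8pos libraries read 25.8 and 17.5 CPM against 8.15 and 5.89 CPM, and in MHCIIhi 267 and 298 CPM against 13.3 and 25.5 CPM. The call was lost on leaving out any one of 6 of the 8 libraries (adjusted p between 0.0168 and 0.0656), with DESeq2 size factors (0.0113) and after thinning to the smallest total (0.0219). Groups of 2 libraries are too small for a check of single outlying libraries.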

How the results depend on the processing

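Of 943 refitted values of the 8 genes over 17 alternative settings, 872 kept their direction and their side of the threshold, 39 lost a call, 7 gained one and 25 changed sign, the last among values that were not called. The number of genes called for MHCIIhi against MHCIIlo in Tspan8neg cells went from 5 to 3 in a fit of its 4 libraries alone, and for the interaction from 1 to 0 with DESeq2 size factors, to 0 after thinning to the smallest total and to 2 at an adjusted p under 0.05. Leaving out a library gave 3 to 6 and 0 to 2 genes for these, and for the other comparisons 6 to 7 (Tspan8 in MHCIIlo), 6 in each case (Tspan8 in MHCIIhi), 4 to 6 (MHCII in Tspan8pos), 5 to 6 (Tspan8posMHCIIlo against Tspan8negMHCIIhi) and 7 to 8 (Tspan8posMHCIIhi against Tspan8negMHCIIlo); a subset left with 1 library was assumed to vary like the others. The log2 fold change of Tspan8posMHCIIlo against Tspan8negMHCIIhi changed sign for Saa3 and Reg3b with DESeq2 (-0.0575 and -0.00386), its size factors (-0.0575 and -0.0520), no filter (-0.0100 and -0.00485), at least 10 counts in 4 libraries (-0.0174 and -0.0119) and the compared libraries alone (-0.0651 and -0.0634), and for Saa3 after thinning (-0.0736). Leaving out a library moved it between -0.30 and 0.19 for Saa3 and -0.42 and 0.52 for Reg3b. The interaction of Saa2 changed sign with DESeq2 (0.15) and after thinning (0.79), and ran from -1.71 to 1.68 on leaving out a library, that of Saa1 from -0.18 to 1.24, that of Reg3g from -0.65 to 0.26, and the Tspan8 change of Saa2 in MHCIIlo from -0.81 to 2.57. The causes were not tested. Replicate numbers are shared by all subsets but nothing says that they mark shared mice, and deviations of same-numbered libraries correlated at 0.00402 to 0.0924 over the 6 pairs of subsets. A replicate block left every call of the 8 genes as it was (7 genes for Tspan8 in MHCIIlo, 6 in MHCIIhi, 5 for MHCII in Tspan8neg, 6 in Tspan8pos, 1 for the interaction, 6 for Tspan8posMHCIIlo against Tspan8negMHCIIhi and 8 for Tspan8posMHCIIhi against Tspan8negMHCIIlo) and moved the genes called for the interaction over all genes from 783 to 1236. Depth limits Saa2 in the MHCIIlo subsets and Crp in Tspan8posMHCIIlo, where single counts carry the values.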
